A study of Mus musculus with 228 samples.

Results

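Thymus was compared with spleen in mice on a chow diet, with 15 thymus and 13 spleen libraries taken by their labels from the 228 libraries of the series. The study measured gene expression by RNA sequencing in 10 mouse tissues under 5 light cycles, on chow or on chow with antibiotics in the drinking water. The mice were C57BL/6N, 10 weeks old at the start and kept 1 to a cage for 42 days. Thymus and spleen each had 3 libraries in constant darkness (LD0/24), in 8 h of light a day (LD8/16), in 12 h (LD12/12), in 16 h (LD16/8) and in constant light (LD24/0). Of the spleen LD12/12 libraries, replicates 2 and 3 were left out, because mitochondrial transcripts, ribosomal RNAs included, took 54.7% and 50.5% of their counts, against at most 9.03% in the libraries used, so LD12/12 spleen was 1 library. None of the mice compared received antibiotics, and the light cycles were pooled.

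The thymus is the organ in which T cells are made. Progenitors that arrive from bone marrow rearrange their receptor genes in the cortex, pass through a stage with both CD4 and CD8, are selected on the peptide complexes that epithelial cells show them, and leave as mature cells. The spleen receives mature lymphocytes from the blood, holds B cell follicles and a marginal zone in its white pulp, and filters old red cells through the macrophages of its red pulp. In the mouse it also makes red cells, platelets and granulocytes.

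Library totals ran from 66500000 to 149000000 counts in thymus and from 69200000 to 124000000 counts in spleen, rounded to 3 digits. Counts on the 13 mitochondrial protein genes took 2.61% to 8.64% in thymus and 1.85% to 8.13% in spleen. The test of these shares is not read, since spleen libraries had been left out for theirs. Totals and number of genes detected did not pass a two-sided permutation test between the tissues (p = 0.697 and 0.354). Adjusted over 3 measures, with the mitochondrial share as the third, p was 0.876 for each. The first principal component, with 65.6% of the variance, separated the tissues, and the second, with 6.68%, set spleen LD16/8 replicate 3 apart. That spleen library carried 56300 CPM on 14 monocyte and neutrophil genes, where the other spleen libraries carried 151 to 1910 CPM. CPM here are counts divided by library size, scaled for composition by the trimmed mean of M values (TMM).

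Of 20294 genes tested, 7723 (38.1%) were higher and 7759 (38.2%) lower in thymus by edgeR's quasi-likelihood F test at an adjusted p of 0.05, together 76.3%. A stricter test, for a difference of more than 2-fold, called 2564 genes higher (12.6%) and 3741 lower (18.4%), together 31.1%. For 27% of genes, all thymus libraries lay on 1 side of all spleen libraries. The median log2 fold change over all genes was 0.014, and the median of its absolute value was 0.76. Most genes thus differed between these organs, and counts over a gene list stand against these percentages. In tissue extracts, fewer cells of a type and less RNA per cell cannot be told apart. The labels do not tie libraries to separate mice, and the p-values cover only how far these libraries differ among themselves. Replicates were not equally close. The median absolute deviation of their log2 ratios was 0.102 for thymus LD16/8 replicates 2 and 3 and 0.142 for spleen LD0/24 replicates 1 and 2. It was 0.787 for spleen LD16/8 replicates 2 and 3. With the closest pairs counted once, chosen after seeing the data, 47.9% of calls were higher in thymus. Why some were closer was not tested.

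**Figure D1:**
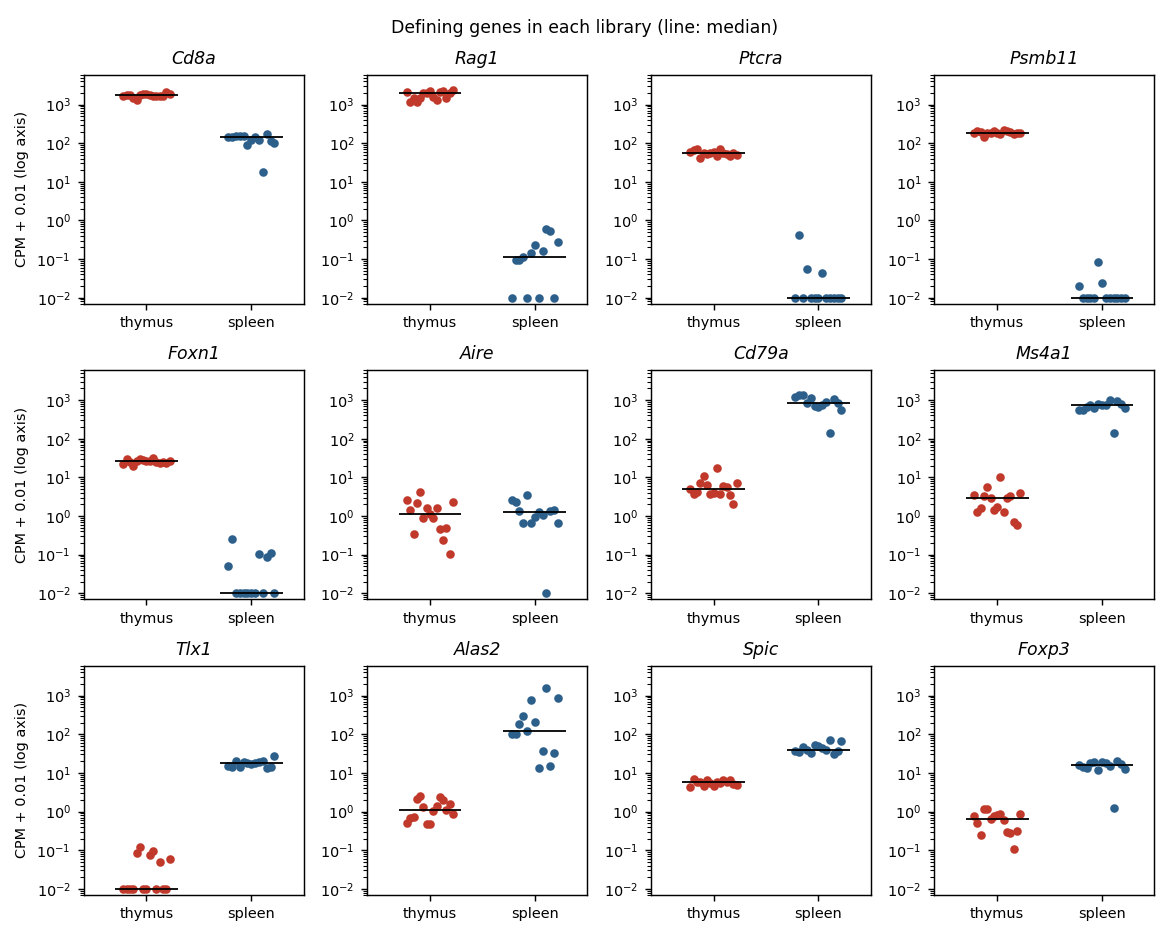
Level of 12 defining genes in each library, as CPM plus 0.01 on a log axis, with 15 thymus libraries on the left and 13 spleen libraries on the right of each panel; lines mark medians. Rag1, Ptcra, Psmb11 and Foxn1 are near the floor in spleen, Tlx1 is near it in thymus, and Aire overlaps between the tissues.

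Genes that assemble antigen receptors were far higher in thymus. Rag1 and Rag2, which together cut DNA at receptor gene segments, and Dntt, which adds untemplated bases at the joins, were at high levels in thymus and close to absent in spleen. Rag1 had 1180 CPM in the lowest, 1980 in the median and 2450 in the highest thymus library, against 0, 0.101 and 0.596 CPM in spleen (log2 fold change 13.4 ± 0.326 SE, adjusted p = 1.46e-26). Rag2 followed with 195, 243 and 270 CPM in thymus, against 0, 0 and 0.164 CPM in spleen. Dntt had 844, 1210 and 1480 CPM in thymus, against 0.656, 2.03 and 3.34 CPM in spleen (log2 fold change 9.26). None of these 3 genes overlapped between the tissues. Log2 fold changes of genes this close to 0 in 1 tissue depend on the prior count of the fit.

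Of the 10 recombination genes measured, 9 rose in thymus and 1 fell, and 6 rose past 2-fold. The repair genes that finish the joins differed in size. Lig4, the ligase of end joining, rose by a log2 fold change of 3.50, and Xrcc6, which encodes Ku70, by 3.29, both with no overlap between tissues and both chosen after their values were seen. Their partners Xrcc4 and Xrcc5 (Ku80), chosen in the same way, rose by 0.42 and 0.49. Prkdc, the DNA-dependent protein kinase, fell by 0.53 on the log2 scale (adjusted p = 1.18e-05), with 26.7, 35.6 and 40.6 CPM in thymus and 32, 55.4 and 62.4 CPM in spleen. Genes that act in the same joining reaction thus stood at unequal differences between the organs.

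All 9 genes of the T cell receptor and CD3 complex rose in thymus, 8 of them past 2-fold, and none overlapped. Ptcra, the pre-T alpha chain that pairs with a new beta chain before alpha is made, had 42.1, 55.1 and 70.7 CPM in thymus, against 0, 0 and 0.403 CPM in spleen (log2 fold change 10.6 ± 0.352). Trbc2, a beta chain constant region, rose by 3.22, with 1990, 2280 and 2930 CPM in thymus and 21.9, 268 and 356 CPM in spleen. Trac, the alpha chain constant region, rose least, by 1.00 ± 0.218 (adjusted p = 0.00015), and did not pass the 2-fold test. The lowest thymus library had 254 CPM of Trac and the highest spleen library 202 CPM. Both organs hold T cells with a complete receptor, and the summed level of the list was 5250 to 7110 CPM in thymus and 84.3 to 1260 CPM in spleen. The lowest of these spleen sums belonged to LD16/8 replicate 3, and the others began at 545 CPM.

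Of 16 genes of the cortical CD4+ CD8+ stage, 15 rose, 14 of them past 2-fold, and the median log2 fold change was 3.58. Cd8a had 1350, 1740 and 2120 CPM in thymus, against 17.8, 143 and 171 CPM in spleen (log2 fold change 3.78 ± 0.193). Cd8b1 rose by 3.27 and Cd4, the co-receptor of helper T cells, by 2.32. Tdrd5, a gene of the Tudor domain family, showed the greatest rise of the list, 10.7, with 54.4, 91.8 and 106 CPM in thymus and 0, 0 and 0.192 CPM in spleen. Satb1, a chromatin organiser of thymocytes, had the list's highest mean CPM and rose by 3.97. Cd1d1, which presents lipids to NKT cells and is also high on marginal zone B cells, had 43.6, 47.8 and 62.8 CPM in thymus and 22, 50.8 and 83 CPM in spleen, and did not pass (log2 fold change -0.17, adjusted p = 0.21). Without spleen LD16/8 replicate 3, Cd1d1 passed as lower in thymus, at -0.26.

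The regulators that commit progenitors to the T lineage split by gene. Of 19, 15 rose and 4 fell. Myb, a factor needed through thymocyte development, rose most, by 4.59, with 586, 758 and 971 CPM in thymus and 14.7, 23.8 and 118 CPM in spleen. Tcf7, which encodes TCF-1, had the highest mean CPM and rose by 3.51. Lowest against spleen was Dtx1, a target of Notch signalling that marginal zone B cells also use, with 15.9, 23.5 and 44.3 CPM in thymus and 47, 283 and 426 CPM in spleen (log2 fold change -3.60 ± 0.203, adjusted p = 5.87e-16). The other 3 that fell were Kit (-2.52), the stem cell factor receptor, Cd44 (-2.88), an adhesion receptor, and Hes1 (-1.82), a Notch target, all chosen after their values were seen. Kit and Cd44 mark the earliest thymocytes and are also found on progenitor and activated cells. Notch1 itself, likewise chosen afterwards, was higher in thymus, by 1.56.

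Of 6 gamma delta T cell genes, 3 were matched by name and tested, 2 rose, and Tcrg-C1, Tcrg-C2 and Tcrg-C4 were not analysed here. Trdc, the delta chain constant region, had 137, 172 and 243 CPM in thymus, against 2.16, 8.18 and 13.3 CPM in spleen (log2 fold change 4.43 ± 0.158), with no overlap. Cd163l1, a scavenger receptor of gamma delta T cells, rose by 1.76. Sox13, a factor of one gamma delta subset, had 2.51, 4.85 and 6.39 CPM in thymus and 3.6, 5.3 and 7.58 CPM in spleen and did not pass (adjusted p = 0.0535), though it passed as lower in thymus by DESeq2 (-0.30, adjusted p = 0.0315) and under many other settings. The delta locus lies within the alpha locus, and no source used here states the strand of the reads, so counts in Trdc may hold other transcripts of that locus.

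**Figure D2:**
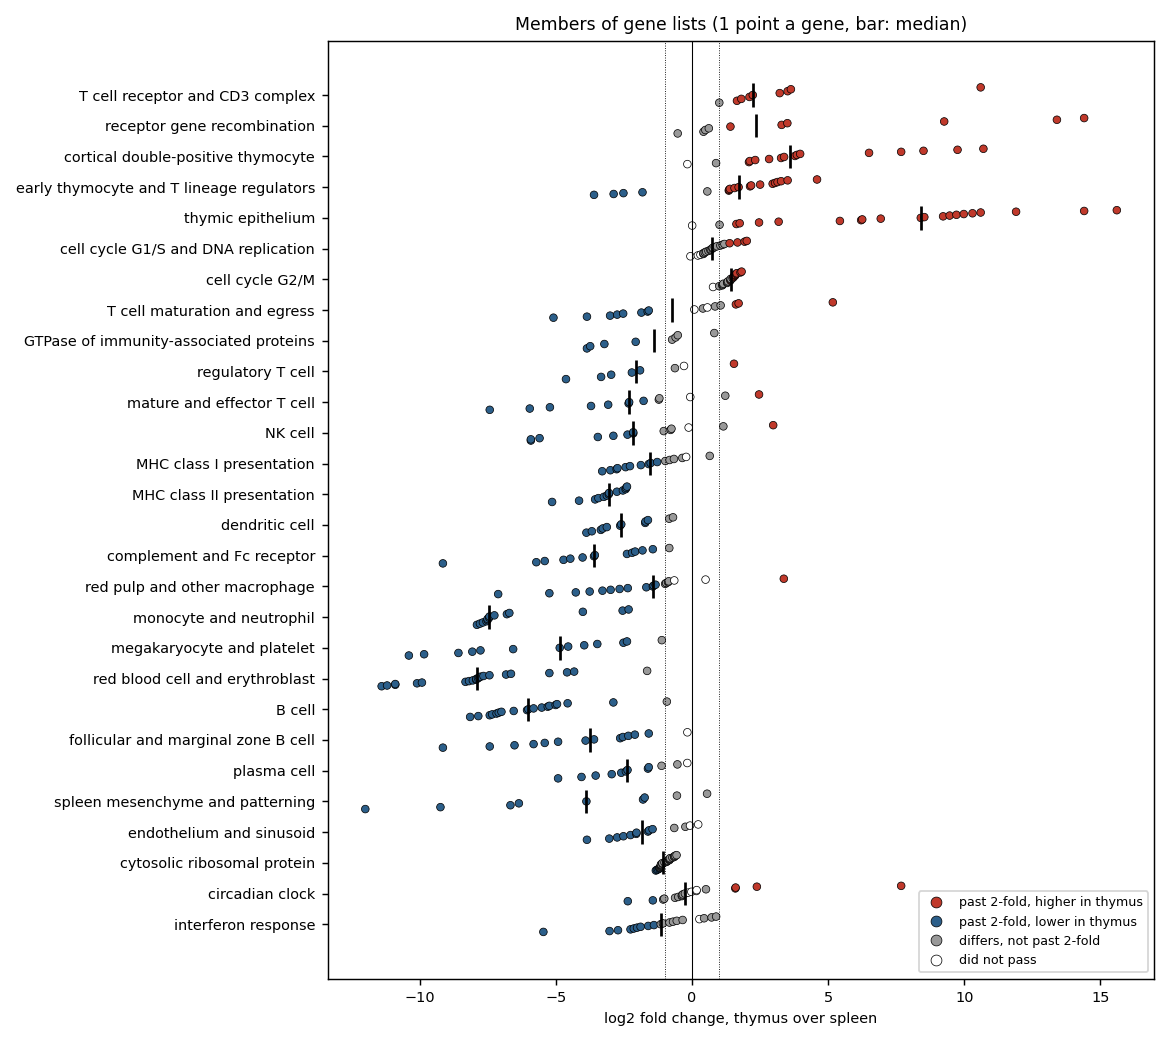
Log2 fold change, thymus over spleen, of each tested member of 28 gene lists; bars are list medians, dotted lines mark 2-fold. The medians of the thymocyte, thymic epithelium and cell cycle lists lie right of 0 and those of the B cell, erythroid and neutrophil lists left of it, while maturation and clock genes spread to both sides.

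Genes that T cells switch on as they finish development moved in both directions. Of 16 maturation and egress genes, 6 rose and 8 fell, against 38.1% and 38.2% of all genes. Past 2-fold, 3 rose and 8 fell, against 12.6% and 18.4% of all genes. S1pr1, the receptor by which T cells leave the thymus, had 3.86, 6.87 and 14.8 CPM in thymus, against 43.2, 267 and 330 CPM in spleen (log2 fold change -5.09 ± 0.249, adjusted p = 2.67e-17). Klf2, the factor that turns on S1pr1, fell by 3.01, and Ccr7, which guides cells to lymphoid T zones, by 3.86 on the log2 scale; both were chosen after their values were seen. Ccr9, the receptor for the thymic chemokine CCL25, went the other way, with 364, 498 and 624 CPM in thymus, against 1.39, 14.1 and 20.8 CPM in spleen (log2 fold change 5.17). Cd69, which holds maturing thymocytes back from exit and was also named afterwards, had medians of 36.2 CPM in thymus and 36.1 CPM in spleen (log2 fold change 0.08, adjusted p = 0.585). The difference of S1pr1 lay between -4.59 and -5.43 in the 5 light cycles.

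GTPases of immunity-associated proteins, which support lymphocyte survival, fell in 7 of 8 cases, against 38.2% of all genes. Gimap3 fell by 3.86 on the log2 scale, with 13.2, 20.1 and 50.7 CPM in thymus and 53.3, 372 and 483 CPM in spleen. Gimap9 was higher, with 119, 137 and 157 CPM in thymus and 21.8, 81.1 and 102 CPM in spleen (log2 fold change 0.82, adjusted p = 8.87e-07). These genes lie in 1 cluster of similar sequence, and counts may be split between them.

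Regulatory T cell genes were lower in thymus for 6 of 8 members. Over all genes, 38.2% were lower and 38.1% higher, and the other counts below stand against these shares. Foxp3, the factor that defines regulatory T cells, had 0.099, 0.633 and 1.15 CPM in thymus, against 1.21, 16.2 and 20.3 CPM in spleen (log2 fold change -4.63 ± 0.288, adjusted p = 4.03e-15). The lowest spleen value was that of LD16/8 replicate 3, and the groups still did not overlap. Il2rb, the beta chain of the IL-2 receptor, fell by 2.21. Ikzf2, which encodes Helios, rose by 1.54, with 63.7, 71.8 and 83.7 CPM in thymus and 4.28, 21.9 and 46.8 CPM in spleen. Among 13 genes of mature and effector T cells, 2 rose and 10 fell. Cd27, a co-stimulatory receptor, rose by 2.46, and Cxcr5, the follicle homing receptor shared with B cells, fell by 7.43 on the log2 scale. Of 14 NK cell genes, 2 rose and 11 fell: Ncr1, the receptor NKp46, had at most 0.18 CPM in thymus and at least 1.26 CPM in spleen (log2 fold change -5.92). Gzma, a granzyme also made by early thymocytes and T cells, was higher in thymus, with 47.8, 73 and 90.5 CPM against 1.43, 4.8 and 30.7 CPM in spleen (log2 fold change 2.98).

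Thymic epithelium genes were far higher in thymus. Of 24 listed genes, 21 passed the filter on low counts, and 20 of these rose, 19 past 2-fold, with a median log2 fold change of 8.40. Cldn3, Spink5 and Dsg3 did not pass the filter. Krt5, a keratin of medullary epithelium, had 23.1, 73.3 and 115 CPM in thymus and 0 counts in all 13 spleen libraries, at least 1840-fold higher when spleen is set at 3 counts a library. Psmb11, the cortical thymoproteasome subunit, had 145, 187 and 217 CPM in thymus, against 0, 0 and 0.0736 CPM in spleen. Foxn1, the master factor of thymic epithelium, had 20, 26 and 31.4 CPM in thymus and 0, 0 and 0.25 CPM in spleen (log2 fold change 9.22 ± 0.283). The difference of Foxn1 lay between 8.51 and 10.3 in the 5 light cycles, and no thymus library approached the spleen range.

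Prss16, the thymus-specific serine protease of cortical epithelium, rose by 8.53, with 549, 746 and 946 CPM in thymus and 0.784, 1.19 and 11.1 CPM in spleen. Ccl25, which draws CCR9+ progenitors, rose by 8.40, and its receptor Ccr9 rose with it. Pax1, a patterning factor of the pharyngeal pouch, had 109, 117 and 145 CPM in thymus and at most 0.113 CPM in spleen. Aire did not follow its list. This regulator lets medullary epithelium make proteins of other tissues, and it had 0.0944, 1.14 and 4.28 CPM in thymus, against 0, 1.28 and 3.54 CPM in spleen (log2 fold change 0.00 ± 0.41, adjusted p = 0.993). The ranges overlapped throughout. Of 11 genes listed as Aire-dependent antigens, 4 passed the filter, none rose and 2 fell. Without the filter on low counts, 3 of 10 in the table rose and the list median was 1.25, so the direction of the list depends on that filter. Gad1, an enzyme of neurons and islets, fell by 5.17 on the log2 scale, with at most 0.245 CPM in thymus and 0.87, 2.09 and 2.8 CPM in spleen. Fabp2, an intestinal fatty acid binding protein, had medians of 0.227 CPM in thymus and 0.147 CPM in spleen and did not pass (adjusted p = 0.318).

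The stroma of the spleen showed its own identity genes. Of 9 genes of splenic mesenchyme and patterning, 1 rose and 8 fell. Tlx1, a homeobox factor without which no spleen forms in mice, had 0, 0 and 0.11 CPM in thymus, against 13.5, 18.2 and 26.7 CPM in spleen (log2 fold change -9.24 ± 0.262). Nkx2-5, a second homeobox factor of the splenic anlage, had 0 counts in all 15 thymus libraries and 3.68, 5.06 and 8.97 CPM in spleen, at least 178-fold lower in thymus when thymus is set at 3 counts a library. Meis1, a cofactor used in many tissues, rose by 0.55, and its direction turned when the 2 left-out spleen libraries were included.

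B cell identity genes were lower in thymus throughout. All 19 B cell genes fell, 18 of them past 2-fold, with a median log2 fold change of -6.01. Over all genes, 38.2% fell. Ms4a1, which encodes CD20, had 0.592, 2.83 and 10.2 CPM in thymus, against 139, 733 and 1020 CPM in spleen (log2 fold change -7.85). Fcmr, the Fc receptor for IgM, showed the greatest fall, 8.15 on the log2 scale. Cd79a, part of the B cell receptor, fell by 7.18, Pax5, the factor that fixes B cell identity, by 7.34, and Ighd, the constant region of IgD, by 7.36. Ralgps2, a guanine nucleotide exchange factor, fell least, by 0.93, with 99.1, 111 and 124 CPM in thymus and 55.6, 223 and 278 CPM in spleen. The summed B cell level was 207 to 314 CPM in thymus and 4930 to 8200 CPM in spleen without LD16/8 replicate 3, which had 1360 CPM.

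Genes listed for B cell subsets were lower in thymus as well. Of 14 follicular and marginal zone genes, 13 fell past 2-fold, and Cd1d1 did not pass. Cr2, the complement receptor CD21, had 0.293, 0.881 and 4.06 CPM in thymus, against 121, 669 and 1040 CPM in spleen (log2 fold change -9.15 ± 0.355). Of 12 immunoglobulin constant regions, 11 fell. Ighm, of IgM, had 607, 772 and 1580 CPM in thymus, against 2030, 4680 and 13100 CPM in spleen (log2 fold change -2.85). Ighe had 0.468, 1.36 and 5.27 CPM in thymus and 0.202, 0.653 and 13 CPM in spleen and did not pass (adjusted p = 0.907); without spleen LD16/8 replicate 3 it passed as higher in thymus, at 1.06. Constant regions share sequence, so counts may be split between them.

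Plasma cell genes fell in 11 of 12 cases. Mzb1, a chaperone of antibody secretion, fell by 4.92 on the log2 scale, and Jchain, which links IgM and IgA chains, by 2.37, with 138, 269 and 481 CPM in thymus and 529, 1170 and 3000 CPM in spleen. Sdc1, the plasma cell marker CD138 that other cells also carry, had 7.54, 13.9 and 17.8 CPM in thymus and 5.77, 12.5 and 32.7 CPM in spleen and did not pass (adjusted p = 0.425). In the germinal centre list, 2 of 8 genes rose and 5 fell, against 38.1% and 38.2% of all genes. Bcl6 rose by 1.37 and Fas by 1.48, and thymocytes are known to use both. Of 10 early B cell genes, 8 passed the filter, 4 rose and 4 fell, against the same shares of all genes. Rag1 and Rag2 are also counted in the recombination list. Vpreb3, a surrogate light chain gene, fell by 6.48 on the log2 scale.

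Promoter sequences are shown for genes whose lists moved as blocks, 2 of the erythroid list below, 1 of the B cell list and 1 of the T cell receptor list. They are RefSeq windows of GRCm38.p6, from 250 bases before the gene's start to 50 after it, on the strand of the gene; expression was counted on GRCm39. Capitals mark 3 motifs on either strand: AGATAA, the core bound by GATA factors, CCACCC, a box bound by KLF factors, and CAGGTG, an E-box bound by E proteins. Cd79a has its window at chr7:24897247-24897546 on the plus strand, Cd3d at chr9:44981536-44981835 on the plus strand, Alas2 at chrX:150547167-150547466 on the plus strand and Epor at chr9:21963527-21963826 on the minus strand.
Cd3d: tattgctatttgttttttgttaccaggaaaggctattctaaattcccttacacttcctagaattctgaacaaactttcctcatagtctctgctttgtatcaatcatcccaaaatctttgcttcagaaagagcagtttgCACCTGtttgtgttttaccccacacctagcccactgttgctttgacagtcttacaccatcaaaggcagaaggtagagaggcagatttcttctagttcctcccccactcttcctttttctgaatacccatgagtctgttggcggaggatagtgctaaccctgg
Cd79a: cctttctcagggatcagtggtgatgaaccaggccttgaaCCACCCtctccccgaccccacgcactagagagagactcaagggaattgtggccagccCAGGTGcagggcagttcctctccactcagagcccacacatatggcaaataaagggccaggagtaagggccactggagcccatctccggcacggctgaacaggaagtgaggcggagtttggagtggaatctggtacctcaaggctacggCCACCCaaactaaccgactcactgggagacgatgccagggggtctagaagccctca
Alas2: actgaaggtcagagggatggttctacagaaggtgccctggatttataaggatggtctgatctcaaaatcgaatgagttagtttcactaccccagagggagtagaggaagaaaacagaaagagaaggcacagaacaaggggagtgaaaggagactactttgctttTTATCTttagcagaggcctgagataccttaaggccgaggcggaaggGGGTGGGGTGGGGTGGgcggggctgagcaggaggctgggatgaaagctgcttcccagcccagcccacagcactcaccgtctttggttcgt
Epor: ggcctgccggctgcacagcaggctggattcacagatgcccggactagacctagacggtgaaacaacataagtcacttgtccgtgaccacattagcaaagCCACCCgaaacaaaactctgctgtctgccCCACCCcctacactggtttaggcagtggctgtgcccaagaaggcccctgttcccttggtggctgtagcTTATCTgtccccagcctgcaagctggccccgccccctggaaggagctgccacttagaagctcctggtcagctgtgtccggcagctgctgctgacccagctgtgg
The Cd3d window holds 1 E-box, and Cd79a holds 1 E-box and 2 CCACCC boxes. Cd3d, a CD3 chain chosen for its promoter after its values were seen, had 329, 407 and 459 CPM in thymus and 11.3, 120 and 216 CPM in spleen. In Alas2 there are 1 AGATAA and 3 CCACCC matches, which share bases, and in Epor 1 and 2.

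Among 32851 promoter windows of the RefSeq table, 11.2% held AGATAA, 31.5% CCACCC, 20.2% CAGGTG and 1.74% the octamer ATGCAAAT. Of 22 erythroid genes, 16 had a window. AGATAA stood in 7 of their 17 windows (41.2%) and CCACCC in 13 (76.5%), while CAGGTG stood in 2 (11.8%). Of 19 B cell genes, 15 had a window, and CAGGTG stood in 10 of 17 windows (58.8%), AGATAA in 0 and the octamer in 1. Of the 9 T cell receptor and CD3 genes, 6 had a window, and CAGGTG stood in 4 of 6. For the 17 windows of the cell cycle G2/M list, CAGGTG and AGATAA each stood in 1 and CCACCC in 4. Other lists held these motifs too: CAGGTG stood in 10 of 19 thymic epithelium windows (52.6%) and 9 of 25 cortical thymocyte windows (36%). CCACCC stood in 11 (57.9%) and 12 (48%) of these. These motifs are given out of 12 looked at, with their shares known. The others were the GATA variant TGATAA, the RUNX core TGTGGT and strings for ETS factors, CACTTCC and, in short form, AGGAAG. Also searched were GGAACT, taken as an EBF half-site, the TATA box TATAAA, the clock E-box CACGTG and the interferon-stimulated response element. All were searched on both strands. A match is a string of letters in a window, and no binding was measured.

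Red cell genes fell in 22 of 22 cases, 21 past 2-fold, with a median log2 fold change of -7.89. Slc4a1, the anion exchanger of the red cell membrane, had 0, 0.0687 and 1.14 CPM in thymus, against 4.54, 126 and 2770 CPM in spleen (log2 fold change -11.4 ± 1.07, adjusted p = 1.24e-10). Alas2, the first enzyme of haem synthesis in red cells, had 0.458, 1.08 and 2.59 CPM in thymus, against 13.6, 120 and 1600 CPM in spleen. Hbb-bs, a beta globin of adult mice, had 24.7, 53.8 and 123 CPM in thymus and 419, 3900 and 54600 CPM in spleen, and its counts may be shared with Hbb-bt. Klf1, the factor that drives red cell genes, fell by 7.93 on the log2 scale. Epor, the erythropoietin receptor, was chosen for its promoter after its values were seen; it had 0.339, 0.79 and 1.29 CPM in thymus and 2.09, 7.94 and 134 CPM in spleen. Tfrc, the transferrin receptor that all dividing cells use for iron, fell least, by 1.65, and overlapped; its call was lost with limma-voom (-0.80, adjusted p = 0.0638) and with the replicate block (-0.69, adjusted p = 0.157).

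These genes also spread widely among spleen libraries. The summed level of the red blood cell and erythroblast list was 192 to 408 CPM in thymus and 1420 to 162000 CPM in spleen. Spleen LD16/8 replicate 3 had the highest sum, and LD24/0 replicate 3 and LD8/16 replicate 3 followed with 79200 and 73500 CPM. Without LD16/8 replicate 3, Slc4a1 differed by -10.8 and Alas2 by -7.52. Within the cycles, the difference of Slc4a1 lay between -6.69 in LD16/8 and -13.7 in LD12/12, which had 1 spleen library.

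Of 13 megakaryocyte and platelet genes, all 13 fell. Treml1, a platelet granule receptor, had at most 0.0626 CPM in thymus and 1.09, 4.18 and 61 CPM in spleen (log2 fold change -10.4). Pf4, platelet factor 4, fell by 4.86 on the log2 scale and Itga2b, the platelet integrin CD41, by 4.55. Gp1ba, part of the von Willebrand factor receptor, fell by 1.11 and overlapped. Of 12 genes of stem and progenitor cells, 11 fell, among them Ly6a, or Sca-1, with 24.7, 38.7 and 64.3 CPM in thymus and 139, 388 and 511 CPM in spleen.

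All 14 monocyte and neutrophil genes fell past 2-fold, against 18.4% of all genes. Of these, 4 fell without overlap, against 13.5% of all genes with every spleen library above every thymus library. Ngp, a neutrophil granule protein, had 0, 2.29 and 7.29 CPM in thymus, against 1.03, 15.4 and 6840 CPM in spleen (log2 fold change -7.90 ± 1.38). S100a9, an alarmin of neutrophils, had 0.0773, 10.2 and 29.8 CPM in thymus and 17.3, 50.3 and 20600 CPM in spleen. In both genes the highest spleen value was that of LD16/8 replicate 3. Without that library, the log2 fold change of Ngp was -3.90 (adjusted p = 2.62e-05) and that of S100a9 was -3.76 (adjusted p = 1.28e-05), and all 14 genes still passed the F test. Camp, the cathelicidin, moved likewise, at -7.51 with it and -4.38 without it.

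**Figure D3:**
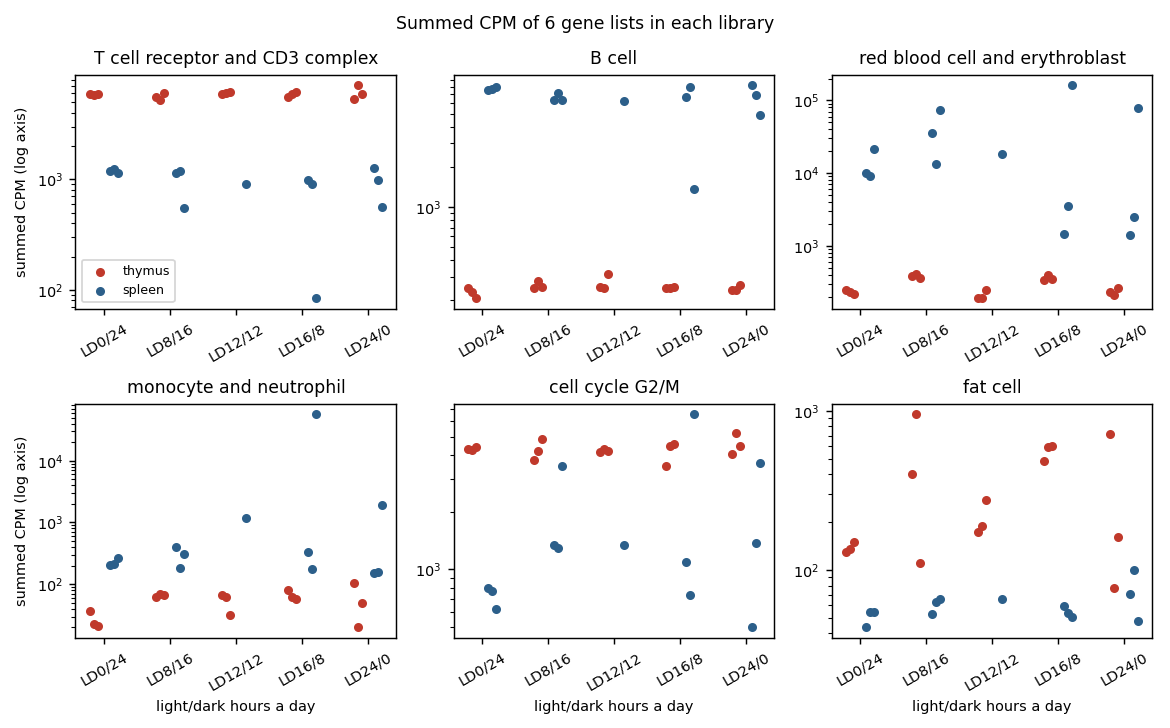
Summed CPM of 6 gene lists in each library, on log axes, by light cycle, with thymus left of spleen within each cycle. Among spleen libraries, LD16/8 replicate 3 is lowest for the T cell receptor and B cell lists, and highest for the erythroid, neutrophil and G2/M lists. Its 6540 CPM in the G2/M list lies above all thymus libraries.

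Red pulp and other macrophage genes fell in 16 of 19 cases, 12 past 2-fold. Spic, the factor of iron-recycling macrophages, had 4.37, 5.75 and 7.15 CPM in thymus, against 31, 40.3 and 69.1 CPM in spleen (log2 fold change -2.99 ± 0.118). Hmox1, which breaks down haem, fell by 4.27 on the log2 scale, and Marco, a scavenger receptor of marginal zone macrophages, by 7.12, with 8.67 CPM in the highest thymus and 43.3 CPM in the lowest spleen library. Vcam1, an adhesion molecule that stroma also makes, had 143, 168 and 243 CPM in thymus and 190, 319 and 626 CPM in spleen, and its fall of 0.99 did not pass 2-fold. Clec4f, a lectin of liver macrophages in mice, rose by 3.37 at a thymus maximum of 0.655 CPM. Among 12 dendritic cell genes, all 12 fell: Cd209a by 3.88 on the log2 scale, Sirpa, which inhibits phagocytes through CD47, by 2.60, and Bst2, a marker of plasmacytoid cells that interferon induces, by 0.70.

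Antigen presentation was lower in thymus for both classes of MHC. All 13 class II genes fell past 2-fold, without overlap. Cd74, the invariant chain, had 361, 513 and 720 CPM in thymus, against 1250, 5560 and 9050 CPM in spleen (log2 fold change -3.44 ± 0.183). H2-Ob, which tempers peptide loading in B cells, fell by 5.14 on the log2 scale, and H2-DMa, a peptide exchange factor, fell least, by 2.39. In the class I list, 14 of 16 genes fell and 1 rose. H2-K1, a class I heavy chain, fell by 2.74 with 296, 419 and 618 CPM in thymus and 969, 2800 and 3620 CPM in spleen. H2-Q7, from a cluster of near copies, fell by 3.30. Tap2, a chain of the peptide pump, stood against the list with 310, 348 and 426 CPM in thymus and 115, 211 and 339 CPM in spleen (log2 fold change 0.65, adjusted p = 1.02e-05).

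Interferon response genes fell in 15 of 19 cases and rose in 3. Rsad2, or viperin, fell by 5.46 on the log2 scale, with 1.51, 2.68 and 5.37 CPM in thymus and 8.05, 36.4 and 552 CPM in spleen. Ifi44, another interferon-induced gene, rose by 0.88. All 14 complement and Fc receptor genes fell. C3, the central complement component, had 34.9, 70.2 and 177 CPM in thymus, against 688, 992 and 1140 CPM in spleen (log2 fold change -3.57 ± 0.174). Fcgr1, a high-affinity IgG receptor, fell least, by 0.84, and its call was lost without the 2 spleens richest in neutrophil RNA (-0.40, adjusted p = 0.0603) and with limma-voom (adjusted p = 0.102).

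Chemokines and adhesion molecules of lymphoid tissue moved mostly one way: 3 of 19 rose and 13 fell. Madcam1, which lines the splenic marginal sinus, had 0, 0.0472 and 0.271 CPM in thymus, against 4.35, 40.3 and 62.4 CPM in spleen (log2 fold change -9.07 ± 0.375). Cxcl13, which builds B cell follicles, and Ccl19, of T cell zones, were chosen after their values were seen and fell by 7.42 and 6.71. Ccl21a, another chemokine of T cell zones named afterwards, had 4.18, 27.3 and 135 CPM in thymus and 10.2, 795 and 1110 CPM in spleen, and the ranges overlapped. Cxcl12 had medians of 327 CPM in thymus and 284 CPM in spleen and did not pass (log2 fold change 0.01, adjusted p = 0.96); it too was named afterwards.

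Of 15 survival cytokine and receptor genes, 4 rose and 9 fell, against 38.1% and 38.2% of all genes. Tnfrsf13c, the receptor for the B cell factor BAFF, fell by 7.10 on the log2 scale with no overlap. Socs1, which restrains cytokine signals in thymocytes, rose by 2.72, with 103, 129 and 173 CPM in thymus and 4.87, 21.5 and 33.3 CPM in spleen. Ifngr1, an interferon gamma receptor chain, rose by 1.22. In the BCL2 family and death receptor list, 4 of 19 rose and 9 fell, against 38.1% and 38.2% of all genes. Mcl1, an anti-death protein, fell by 0.81, with 333, 368 and 416 CPM in thymus and 526, 656 and 702 CPM in spleen. Bcl2a1b, from a cluster of copies, fell by 4.18 on the log2 scale. Bcl2l1, which encodes BCL-XL, rose by 1.33 and Bcl2 fell by 1.27, both chosen after their values were seen. With library totals in place of TMM scaling, 9 of the 19 rose.

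Cell cycle genes were higher in thymus. Of 20 G2/M genes, 19 rose, 9 of them past 2-fold, and of 21 G1/S and replication genes, 18 rose, 4 past 2-fold. Over all genes, 38.1% rose. Kif11, a spindle motor, had 173, 236 and 278 CPM in thymus, against 19.6, 48.8 and 244 CPM in spleen (log2 fold change 1.82 ± 0.296, adjusted p = 2.81e-06). Uhrf1, which copies DNA methylation at the fork, rose by 2.01 and did not overlap. Pcna, the replication clamp, rose by 1.04. No G2/M gene separated the tissues fully. The G2/M sum was 3500 to 5200 CPM in thymus and 497 to 3620 CPM in spleen without LD16/8 replicate 3, which had 6540 CPM. Mki67, which encodes Ki-67, had 869, 951 and 1230 CPM in thymus and 127, 301 and 2250 CPM in spleen, and did not pass (log2 fold change 0.77 ± 0.36, adjusted p = 0.0538). Spleen LD24/0 replicate 3 and LD8/16 replicate 3 came next, with 1390 and 1300 CPM of Mki67. Without LD16/8 replicate 3 the gene passed, at 1.15 (adjusted p = 0.00192), as it did with all libraries by DESeq2 (1.06, adjusted p = 0.0003) and limma-voom (1.42, adjusted p = 0.00048). The part of the neutrophil and erythroid RNA of that library in its cell cycle sum was not tested.

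Genes of RNA translation fell together and by a narrow range. All 26 cytosolic ribosomal protein genes were lower in thymus, 5 past 2-fold, with a median log2 fold change of -1.05. Rplp1, a stalk protein of the large subunit, had 1180, 1480 and 1670 CPM in thymus, against 2030, 3460 and 6460 CPM in spleen (log2 fold change -1.33 ± 0.13), and Rpl7 fell least, by 0.57. The 13 mitochondrially encoded genes are described with no test, because spleen libraries were left out for their mitochondrial share. COX1, of the respiratory chain, had 8640, 10200 and 30200 CPM in thymus and 7140, 17700 and 33700 CPM in spleen, and the ranges overlapped. With the 2 left-out spleens included, the list median was -1.81. The mitochondrial share of those spleens set that direction in advance, so it is not a result about the tissues.

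Clock genes, which set daily rhythm and are of interest because the mice lived under 5 light cycles, differed one by one. Among 19, 5 rose and 10 fell, against 38.1% and 38.2% of all genes. Arntl, which encodes BMAL1, had 36.6, 53.4 and 62.3 CPM in thymus, against 8.09, 16.9 and 20.1 CPM in spleen (log2 fold change 1.60). Cry1, a repressor of the loop, rose by 1.59, and Npas2, which can stand in for CLOCK, by 2.38; these 3 were chosen after their values were seen. Bhlhe40, a repressor that lymphocytes induce on activation, fell by 2.36 on the log2 scale, with 5.94, 9.06 and 20 CPM in thymus and 25.4, 49 and 62 CPM in spleen. No source used here states the hour of sampling. With library totals in place of TMM, 5 genes fell.

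Of 13 immediate early and heat shock genes, 6 rose and 3 fell, against 38.1% and 38.2% of all genes. Hspa1b was up by 1.51 and Ier2 down at -1.13. Of 12 glucocorticoid response genes, 2 rose and 6 fell, against 3 and 3 with library totals, and 4 rose without spleen LD16/8 replicate 3. Fkbp5, a chaperone that glucocorticoids induce, had 309, 393 and 423 CPM in thymus, against 44.5, 65.6 and 92 CPM in spleen (log2 fold change 2.48 ± 0.0871), and Sgk1, a kinase they also induce, fell by 0.94.

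Stroma and vessels were lower in thymus in most members. Of 14 endothelial genes, none rose and 12 fell. Plvap, of fenestrated endothelium, had 3.09, 7.29 and 14.5 CPM in thymus, against 69.1, 96.4 and 168 CPM in spleen (log2 fold change -3.86 ± 0.191). Lyve1, of lymphatic and sinusoidal endothelium, had medians of 0.549 CPM in thymus and 0.598 CPM in spleen and did not pass. Of 15 fibroblast genes, 2 rose and 12 fell. Des, the muscle filament desmin, fell by 4.37 on the log2 scale and Col1a2, a collagen chain, by 3.66, while Lum, a proteoglycan, rose by 2.96.

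Most fat and parathyroid genes tested were higher in thymus, at uneven levels, and the source of their RNA was not tested. Of 11 fat cell genes, 9 passed the filter, 8 rose and none fell. Adipoq, the fat hormone adiponectin, had 0.326, 7.97 and 88.3 CPM in thymus, against 0, 0.259 and 2.7 CPM in spleen (log2 fold change 5.55 ± 0.784), and thymus LD8/16 replicate 2 held the highest value. Pth, the parathyroid hormone, had 0.11, 53.8 and 298 CPM in thymus, against 0, 0 and 0.0561 CPM in spleen. Only LD24/0 replicate 1 of the thymus libraries was under 25.2 CPM. Chga, a granule protein of endocrine cells, rose by 11.7, and Casr, the calcium receptor, by 4.33. Gcm2, the parathyroid factor, had 0.419 CPM at the median in thymus and 0.779 CPM in spleen and did not pass (adjusted p = 0.121), but passed as lower in thymus without spleen LD16/8 replicate 3 (-0.72, adjusted p = 0.0449) and without thymus LD12/12 replicate 3 (-0.82, adjusted p = 0.042). How far such RNA enters other differences was not tested. In the 138 chow libraries of the 8 other tissues of the series, Pth was at most 0.0513 CPM, here without TMM scaling.

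Pancreatic RNA was uneven among spleens. The summed pancreatic list was 3.96 to 18.5 CPM in thymus and 5.06 to 432 CPM in spleen, with the highest value in LD16/8 replicate 2. Amy2a5, pancreatic amylase, did not pass the filter and had up to 4.11 CPM in thymus and up to 105 CPM in spleen; it was named after its values were seen. Prss2, a trypsinogen, had 0.572, 1.63 and 2.28 CPM in thymus and 0, 0.381 and 21.2 CPM in spleen, the highest in the same spleen, and did not pass (log2 fold change -0.43), with a direction that turned without that library. Of 13 skeletal and heart muscle genes, 7 passed the filter, 2 rose and 2 fell, against 38.1% and 38.2% of all genes. The list median was -0.35. Mylpf, a light chain of fast muscle myosin, rose by 2.77, with 9.13, 11.8 and 15.8 CPM in thymus and 0.48, 1.4 and 3.98 CPM in spleen. Tnnt2 fell by 2.44 on the log2 scale, but did not pass without spleen LD16/8 replicate 3 (-1.16, adjusted p = 0.0625). Tg, thyroglobulin, fell by 1.38, with at most 1.54 CPM in thymus and 4.36 CPM in spleen, and Ckm, the muscle creatine kinase, at most 0.221 CPM in thymus and 0.289 CPM in spleen. Cpa1, Pnlip and Ucp1 did not pass the filter. In the mast cell and basophil list, 4 of 7 tested genes rose and 3 fell, against 38.1% and 38.2% of all genes. Without the low count filter 6 of 10 fell and the list median turned to -1.53, against 0.996 with it. Cpa3, a mast cell protease, rose by 2.38, or by 3.47 without spleen LD16/8 replicate 3, and Hdc, which makes histamine, fell by 3.78 on the log2 scale, or by 1.33 without it.

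Over all genes, 669 met the rule for the largest rises: past 2-fold, at least 20 CPM on average in thymus, and no overlap between tissues. The 10 largest were Krt5, Gm37548, Pth, Psmb11, Rag2, Rag1, Slc46a2, BB031773, Pkp1 and Pax1. Slc46a2, first described as a thymic stromal transporter, had 37.6, 47.3 and 62.9 CPM in thymus and at most 0.0561 CPM in spleen. Pkp1, a plakophilin of desmosomes, had 23.5, 34 and 45.7 CPM in thymus and at most 0.0395 CPM in spleen. Gm37548, a predicted gene, had 15.1, 33.5 and 36.8 CPM in thymus and 0 counts in spleen, at least 862-fold higher by the same floor of 3 counts a library. BB031773, of which little is annotated, had 2 counts over all spleen libraries, and no fold is given for it.

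By the same rule, with the mean taken in spleen, 1103 genes were lower in thymus. Among the 10 largest falls were 5430401H09Rik, Coch, Slc4a1, Slfn14, Slc38a5, Ahsp, Tspo2, Rhag and Trim10. Ahsp stabilises free alpha globin and Rhag belongs to the Rh complex of the red cell. Coch, which encodes cochlin, had 0, 0.141 and 0.592 CPM in thymus, against 345, 470 and 848 CPM in spleen (log2 fold change -11.4 ± 0.252, adjusted p = 5.39e-27). Its spleen values spread far less than those of Slc4a1, at 4.54, 126 and 2770 CPM. Slfn14, a ribonuclease of the Schlafen family, had at most 0.0479 CPM in thymus and 0.313, 3.63 and 119 CPM in spleen.

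Whether the tissue difference changed with the light cycle was asked with an interaction test over 5 cycles. By edgeR, 0 of 20294 genes were called (0%), and the smallest adjusted p was 0.0948. An unadjusted p under 0.05 was found for 2010 genes (9.9%), where 1015 would be expected by chance. DESeq2 called 658 and limma-voom 0. The spleen LD12/12 group was 1 library in this fit. The 5 genes with the smallest p were Nmb, Zscan29, Mcrip1, Tmem109 and Tsen34. Nmb, the neuropeptide neuromedin B, had 7.69, 8.11 and 7.18 CPM in LD0/24 thymus and 7.1, 7.39 and 6.18 CPM in LD0/24 spleen. In constant light it had 8.86, 11.1 and 8.67 CPM in thymus and 3.28, 3.36 and 3.43 CPM in spleen. The tissues overlapped in constant darkness and did not in constant light. The log2 difference of Nmb was 0.155 in LD0/24 and 0.907 in LD8/16. It was 1.76 in LD12/12, 1.68 in LD16/8 and 1.49 in LD24/0, so constant light did not stand apart. Tmem109, a membrane protein, had 26.6, 24.3 and 26.7 CPM in LD0/24 thymus and 66.1, 58.3 and 63 CPM in LD0/24 spleen, and its difference was -1.27 there and between -0.47 and -0.63 in the other cycles. Tsen34, a subunit of the tRNA splicing endonuclease, ran likewise, at -1.24 in LD0/24 and -0.28 to -0.51 elsewhere. Zscan29, a zinc finger protein, differed by 1.35 in LD0/24 and by -0.34 to 0.03 elsewhere. None of these passed after adjustment.

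**Figure D4:**
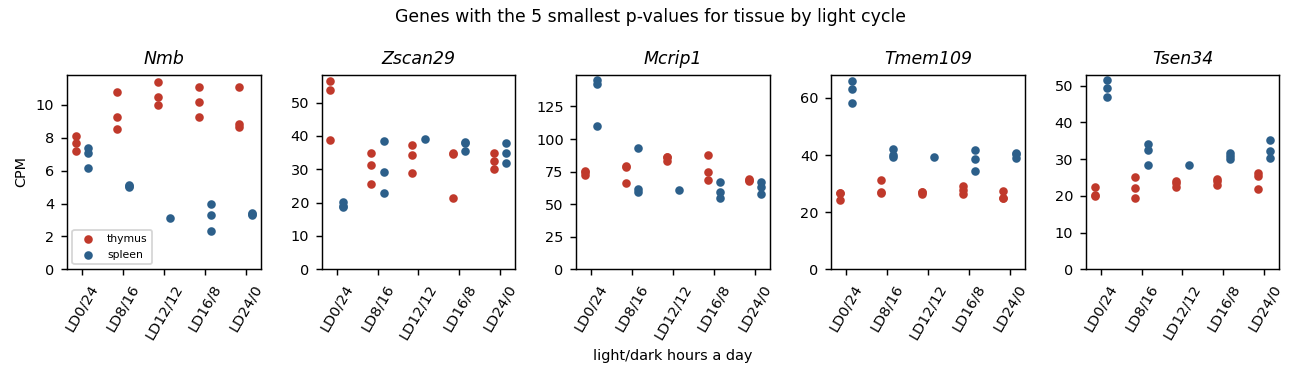
CPM by light cycle of the 5 genes with the smallest interaction p-values, 1 point a library, thymus left of spleen in each cycle. In LD0/24 the spleen points lie apart from those of the other cycles, while none of the 5 genes passed after adjustment.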

How the data were processed

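The deposited table holds estimated counts per gene for 228 libraries, in whole numbers. The labels' protocols name TRIzol for extraction and a SMARTER kit for the mRNA libraries. The submitters' processing notes list StringTie 2.2.1, SAMtools 1.10 and HISAT2 2.1.0, and genome build GRCm39. No source used here states the strand of the reads or how the estimates became whole numbers. Values of 4 were in surplus (19465 cells, against 11540 with 3 and 9760 with 5 in these libraries), so tests were repeated on values divided by 4. Of 46333 rows, 2 named no gene, held at most 0.05% of a library and were left out.

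Genes were filtered with filterByExpr, scaled with TMM and tested with edgeR 4.0.16 in R 4.3.3 (robust quasi-likelihood F test, glmTreat against 2-fold). The fit kept edgeR's default prior count. A prior count of 2 entered the log2 CPM behind the principal components, the differences within light cycles and the correlations between libraries. P-values were adjusted by Benjamini and Hochberg over 20294 genes. Standard errors are the absolute log2 fold change over the square root of F and are approximate. DESeq2 1.42.0 and limma 3.58.1 were alternatives. Scripts were tested on simulated data. Permutation tests drew 100000 resamples. Where 3 values are given for a tissue of 13 or 15 libraries, they are the lowest, median and highest library.

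Members, gene lists and alternatives were chosen with earlier results of these data known. From each list, the largest rise, the largest fall, the highest mean CPM and the member nearest 0 or against the list were named, lists of at most 6 whole, with the defining markers, the 10 largest rises and falls and the 5 smallest interaction p-values; others are said to be chosen after their values were seen. The main fit did not pair libraries by replicate number. Some named genes are not reported here.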

Additional observations from a re-analysis of the deposited data

How the results depend on the processing

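Counts of genes higher, lower and past 2-fold stayed within 1.5 times of those reported under every alternative run. When single libraries were left out, 7307 to 7890 genes were higher, 7691 to 8176 lower, 2390 to 2804 past 2-fold higher and 3691 to 3907 past 2-fold lower. Library totals in place of TMM shifted the median log2 fold change of all genes to 0.23, with 9511 genes higher and 6420 lower, so that 59.7% of calls were higher, against 49.9%, and the medians of the BCL2 and mitochondrial lists turned positive. With cycle and replicate number as a replicate block, 7621 genes were higher and 7330 lower. Libraries that shared a number did not deviate together (12 pairs, correlations of -0.12 to 0.04). Since 2 organs of 1 mouse need not deviate alike, this cannot tell whether the numbers pair them. The interaction depended on the tool and libraries: 658 genes were called by DESeq2, 75 with the 2 left-out spleen libraries, 104 without the 2 spleens richest in neutrophil RNA (an alternative chosen after seeing the data), and 0 to 308 when single libraries were left out. It was 308 without spleen LD8/16 replicate 2, 65 without spleen LD16/8 replicate 3, 36 without spleen LD12/12 replicate 1 and 19 without thymus LD0/24 replicate 1. The cause was not tested. These log2 fold changes changed direction. Prss2 was 1.91 by DESeq2, 2.08 by limma-voom, 1.40 with the replicate block and -0.56 to 2.16 when single libraries were left out, the highest without spleen LD16/8 replicate 2. Try5 was 1.24 by DESeq2, 1.54 by limma-voom and -2.96 to 1.42 when single libraries were left out, the highest without the same spleen. With the 2 left-out spleens, Meis1 was -0.22 and ND3 -1.79, where the turn of ND3 was set in advance by their mitochondrial share. Without the 2 neutrophil-rich spleens, Ccne1 was 0.42, Tnnt2 0.15 and Tshr 1.89; Tshr was -0.97 to 1.80 when single libraries were left out, the highest without spleen LD16/8 replicate 3. At this depth, genes under about 1 CPM give the least certain differences.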

Other observations

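Liver plasma protein genes, a list added after their values were seen, were uneven in thymus. Their summed level was 0.64 to 196 CPM in thymus and 1.09 to 100 CPM in spleen. Alb, or albumin, had 0.175, 33.5 and 128 CPM in thymus, against 0, 0.364 and 70.4 CPM in spleen (log2 fold change 2.30, adjusted p = 0.0388), a call that was lost with limma-voom (adjusted p = 0.0859), with the 2 left-out spleens (0.127) and without thymus LD24/0 replicate 1 (0.0714), among others. Of 9 tested members, 8 were higher in thymus, and 4 by DESeq2. Replicates of 1 light cycle differed: thymus LD12/12 replicates 1 and 2 had sums of 0.64 and 0.994 CPM, and replicate 3 had 121 CPM. The source of this RNA was not tested.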
